A study of Mus musculus with 5 samples.

Results

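Cluster 5 of CD45+ immune cells from the mouse thyroid was described here from single-cell RNA counts. Its members were the 805 of 10275 cells that carry the number 5 in the authors' clustering, a group proposed as cycling thymocyte-like cells with the markers Rrm2, Pclaf, Top2a, Hist1h1b, H2-T3 and Ccna2. All mice were NOD.WT, of the autoimmunity-prone NOD strain, of both sexes and 4 to 6 weeks old at the start. The checkpoint inhibitor group (ICI; 16 mice, 4 libraries) received antibodies against PD-1 (RPM1-14) and CTLA-4 (9D9), and the isotype group (10 mice, 1 library) received control antibodies of clones 2A3 and MPC11. Injections were intraperitoneal and repeated over 4 weeks, with 10 mg/kg per dose stated for the inhibitors. Mice were perfused and live CD45+ cells were sorted from digested thyroids. Mice were pooled, the number of mice per library is not given in the sources used here, and the ICI replicate numbers only name the libraries. The titles of ICI 1 to 3 share a stem (m1, m1a, m1b), which that of ICI 4 (nov21) does not.

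Thymocytes are T cells in development. They cut and join their receptor genes with the recombinase proteins Rag1 and Rag2, add bases at the joints with the polymerase Dntt, and divide rapidly once a rearranged beta chain has paired with the pre-T alpha chain Ptcra. They then carry both coreceptors, Cd4 and Cd8a, and stop dividing before the alpha chain is rearranged, whereas activated mature T cells divide in tissues without these genes and with effector genes such as Gzmk and Ccl5.

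The thymocyte part of the label did not hold in every library. Of the cycling part, Rrm2 transcripts were found in 53 of 63, 16 of 18, 21 of 25 and 534 of 546 cells in ICI 1 to 4 and in 142 of 153 isotype cells, against 4.67% of macrophage-like cluster 7 cells. All 805 cells had the authors' phase call S or G2M, which is a description, since cycling genes also formed the cluster. Transcripts of at least 1 of 7 thymocyte genes (Rag1, Ptcra and Dntt among them) were found in 543 of 546 cells of ICI 4 and in 153 of 153 isotype cells. In ICI 1 they were found in 34 of 63 cells, in ICI 2 in 3 of 18 and in ICI 3 in 2 of 25. Macrophage-like cluster 7, which should lack the thymocyte genes, had them in 20% of cells in ICI 4 (median 8726 UMIs per cell) and 54.3% in isotype (median 9932), and in 5.77%, 1.10% and 1.23% in ICI 1 to 3 (medians 3403, 3403 and 3471.5). Cluster 5 cells had medians of 4893, 8012, 1686, 14788.5 and 9503 UMIs in ICI 1 to 4 and isotype. Some shares of cells with a transcript were also read at an equal depth, but the count over 7 thymocyte genes was not. With cells thinned to an equal number of UMIs, Dntt was found in 48.1%, 0%, 0%, 74.9% and 71.9% of them. H2-T3 was then found in 46.2%, 9.09%, 0%, 74.9% and 61.4%. Thinning kept 52, 11, 12, 545 and 153 cells, so the shallower cells were not covered. On these shares, the cells of ICI 2 and ICI 3 are called cluster 5 cells, without the thymocyte name, throughout.

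The libraries differed in other ways. The summed UMIs of cluster 5 ranged from 148565 in ICI 2 to 9554952 in ICI 4, and the median mitochondrial share of a cell was 4.06% in ICI 1 against 1.15% to 1.47% in the other libraries. ICI 2 and ICI 3 shared 140 cell barcodes in all, of which 21 involved a cluster 5 cell and 11 had both copies in cluster 5, so 16 of 18 ICI 2 cells and 16 of 25 ICI 3 cells had a partner in the other library. In 19 of these 21 pairs the larger copy held 9.23 to 13.5 times the UMIs of the smaller, and 97.3% to 99.1% of the genes seen in the smaller copy were also in the larger. In the other 2 pairs the UMI totals differed by 1.15 and 1.16 times and 31.2% and 33.3% of genes were shared. Most cluster 5 barcodes of ICI 2 and ICI 3 were therefore not separate between these libraries. Some results are also given with the smaller copy of each pair removed. ICI 2 and ICI 3 were still counted as separate libraries in each mean, SD and permutation test. The n of 4 may therefore overstate the number of independent ICI libraries. Xist, expressed in female cells, was found in 46, 12 and 11 cells of ICI 1 to 3, in 1 cell of ICI 4 and in none of isotype, and Eif2s3y on the Y chromosome in 8, 1, 3, 357 and 80 cells. The part of sex or depth in the results was not tested.

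Cluster 5 was a smaller share of the ICI libraries than of isotype, by an amount that varied among them. It made up 4.14% of cells in ICI 1 (exact Clopper-Pearson 95% interval 3.19 to 5.26), 1.48% in ICI 2 (0.877 to 2.32), 2.15% in ICI 3 (1.40 to 3.16), 10.9% in ICI 4 (10.0 to 11.8) and 11.3% in isotype (9.68 to 13.1). ICI 4 lay within the interval of isotype, and ICI 1 to 3 lay below it. The ICI mean was 4.66% ± 4.30 (SD, n = 4), which is 6.66 points below isotype, and the exact two-sided permutation p was 0.2, the smallest that 4 libraries against 1 allow. Without the smaller copies of shared barcodes the difference was -6.92 points (exact two-sided permutation p = 0.2). Intervals cover counting error only.

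Among the cells of clusters 2, 5 and 11, which carried thymocyte genes in earlier results of these data, the order was the other way. Cluster 5 made up 31.2%, 45.0%, 53.2% and 42.1% of them in ICI 1 to 4 and 26.7% in isotype. The ICI mean of 42.9% ± 9.09 (SD, n = 4) was 16.2 points above isotype, all 4 ICI libraries lay above it, and the exact two-sided permutation p was 0.4. The intervals of ICI 1 (24.9 to 38.1) and ICI 2 (29.3 to 61.5) overlapped that of isotype (23.1 to 30.5). Most cluster 5 cells of ICI 2 and ICI 3 had no thymocyte transcript, and in ICI 1 only 34 of 63 cells had one. For ICI 1 to 3 the ratio thus does not count thymocyte-like cells alone.

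**Figure D1:**
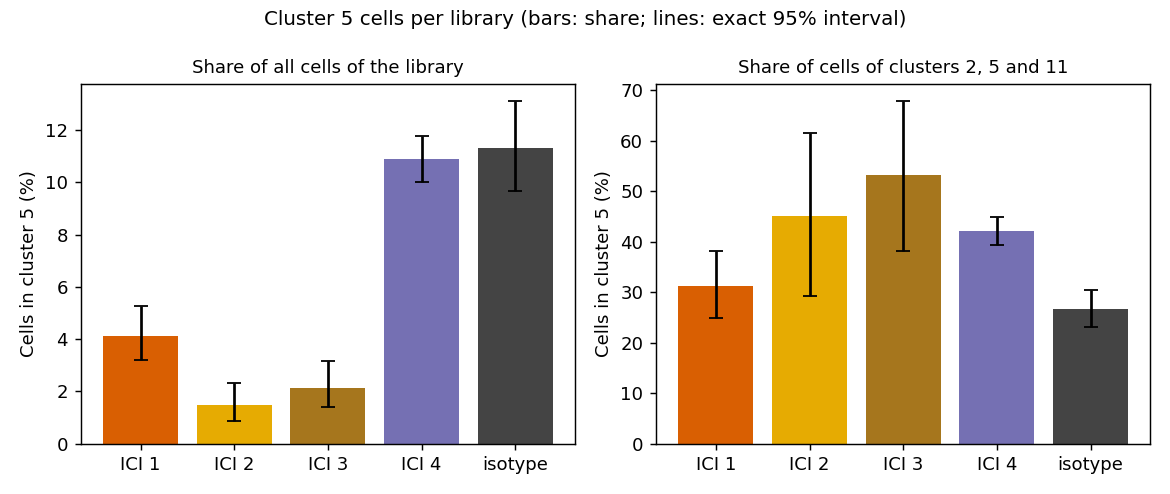
Share of cluster 5 cells in each library, among all cells (left) and among cells of clusters 2, 5 and 11 (right), in percent, with exact 95% intervals as lines. On the left ICI 4 (10.9%) sits beside isotype (11.3%) and ICI 1 to 3 sit lower, and on the right all 4 ICI libraries sit above isotype.

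Cell by cell, the cluster held cycling cells of 2 kinds. Effector transcripts were counted over 14 genes (the effector T cell list without Gzma, Cd44, Id2, S100a6 and Lgals1), and 3 or more UMIs were required. In ICI 1, 32 cells had thymocyte transcripts only, 23 had effector transcripts only, 2 had both and 6 had neither. In ICI 2 these counts were 2, 15, 1 and 0, and in ICI 3 they were 2, 19, 0 and 4. In ICI 4, 485 cells had thymocyte transcripts only, none had effector transcripts only, 58 had both and 3 had neither, and in isotype the counts were 144, 0, 9 and 0. ICI 4 and isotype were thus nearly all cells with thymocyte genes, ICI 2 and ICI 3 were mostly cells with effector genes, and ICI 1 held both kinds. The median cell of ICI 1 had 8460 UMIs in the thymocyte kind and 3934 in the effector kind.

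**Figure D2:**
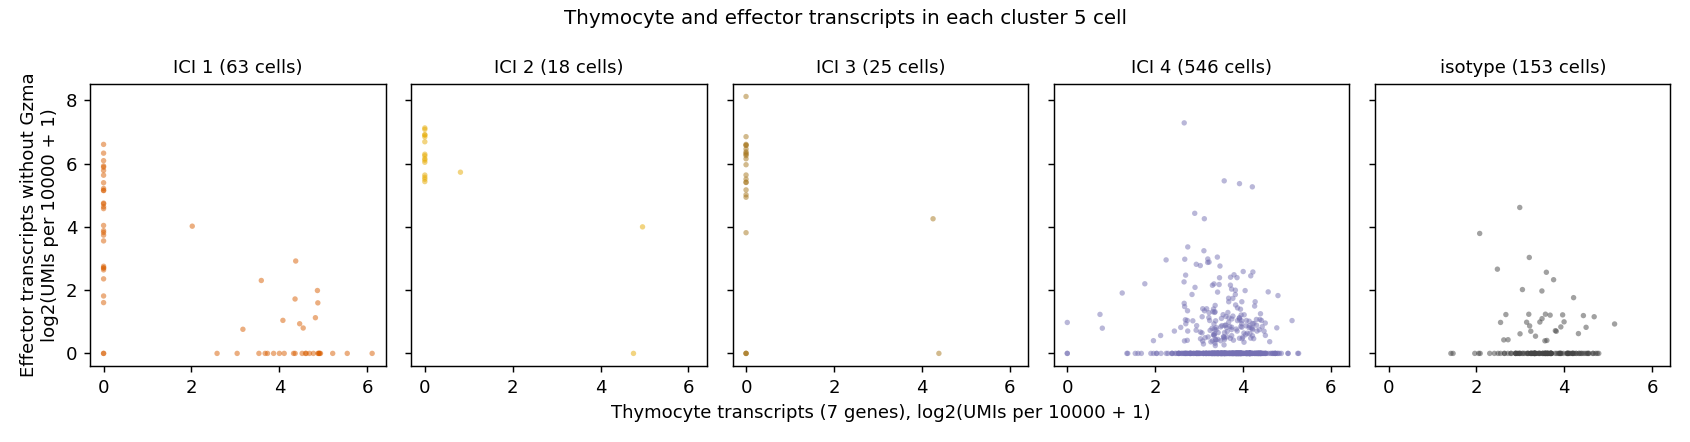
Each point is 1 cluster 5 cell, with thymocyte transcripts (7 genes) on the horizontal axis and effector transcripts without Gzma on the vertical axis, as log2(UMIs per 10000 + 1). ICI 1 splits into a group along each axis, ICI 2 and ICI 3 lie mainly along the vertical axis, and ICI 4 and isotype lie to the right.

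The share of cells with effector transcripts depended on Gzma, a granzyme of cytotoxic lymphocytes that was found in 373 of 546 ICI 4 cells. With Gzma counted, 47.6%, 88.9%, 76.0% and 50.7% of cells passed in ICI 1 to 4 and 20.9% in isotype, a mean difference of 44.9 points (exact two-sided permutation p = 0.2, above isotype in 4 of 4; 47.3 points and p = 0.4 without the smaller copies). Without it the shares were 39.7%, 88.9%, 76.0% and 10.6% against 5.88%, a difference of 47.9 points with an exact p of 0.4, and with every cell thinned to 2000 UMIs they were 36.5%, 100%, 100%, 1.83% and 1.31%. Thinning left out 11 of 63, 7 of 18, 13 of 25, 1 of 546 and 0 of 153 cells. ICI 2 and ICI 3 had the highest shares at equal depth, and ICI 4 and isotype were then close to each other. Without thinning, the same count was reached by 46.7% of macrophage-like cluster 7 cells, by 71.1% of cells of cluster 12 and by 2.02% of cluster 11. In cluster 7 it was reached by 27.9%, 35.4%, 38.3%, 86.7% and 74.4% of cells in ICI 1 to 4 and isotype. S100a4, a gene of the count, had a transcript in 30.1% of cluster 7 cells. Gzmk, a granzyme of memory and effector T cells, had a transcript in 8, 12, 13, 4 and 0 cluster 5 cells of the same 5 libraries, and in 0.966% of macrophage-like cluster 7 cells (median 4333 UMIs, against 13085 in cluster 5).

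The marker genes of division were found in all 5 libraries. Levels are counts per 1000000 UMIs of the library's cluster 5 cells (CPM), in the order ICI 1, 2, 3, 4 and isotype, and in such sums fewer cells with a transcript and less RNA per cell cannot be told apart. Rrm2, a subunit of the enzyme that makes DNA precursors, was at 1159, 767, 720, 1017 and 850 CPM. Top2a, which untangles replicated chromosomes, was at 1081, 929, 632, 912 and 787 CPM, and Pclaf, which binds the replication clamp, at 881, 996, 879, 1095 and 1028 CPM. Isotype lay inside the ICI range for all 3. In ICI 1, Rrm2 was at 1525 CPM in cells with thymocyte transcripts only and 519 in those with effector transcripts only, and Top2a at 1207 and 824 CPM. Ccna2, the cyclin of S phase and entry into mitosis, was at 475, 343, 216, 386 and 383 CPM, with isotype again inside the range. Mki67, a protein of dividing cells' chromosomes, was highest in ICI 1 at 1542 CPM and lay at 666, 586, 765 and 631 CPM in the other libraries. Ccnd3, the D-type cyclin that drives thymocyte division, was at 1079, 666, 612, 860 and 994 CPM, and Cdk1, the kinase of mitosis, at 186, 202, 216, 218 and 242 CPM. Dut, which clears dUTP from the precursor pool, was at 1009, 545, 684, 871 and 943 CPM. Hmgb2, a chromatin protein of dividing cells, was the most abundant gene of the mitosis list at 2973.5, 2686, 2555, 3804 and 4247 CPM, and all 4 ICI libraries lay below isotype. The 29 replication genes summed to 9984, 8272, 8282, 9791 and 8743 CPM and the 26 mitosis genes to 10132, 8387, 6869, 9904 and 10761 CPM. Isotype lay inside the ICI range for replication and above it for mitosis.

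The clustered histone genes, which supply chromatin proteins for newly made DNA, split the libraries in another way. Hist1h1b, a linker histone, was at 346, 256 and 170 CPM in ICI 1 to 3, at 1574 in ICI 4 and at 2076 in isotype. The 63 histone genes summed to 1530, 2558, 2859, 8276 and 11783 CPM. A gap of the same direction was found outside cluster 5: in cluster 12, another cluster with Top2a transcripts (210 to 518 CPM in ICI 1, ICI 4 and isotype), the histone sum was 560 CPM in ICI 1, 3848 in ICI 4 and 7106 in isotype, and in cluster 2 it was 208, 1386 and 1825 CPM. ICI 1 held the lowest histone sum, and 34 of its 63 cells had thymocyte transcripts. Its 32 cells with thymocyte transcripts only had Hist1h1b at 444 CPM against 1637 and 2205 in the like cells of ICI 4 and isotype. The cause of these differences was not tested.

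Genes of the thymocyte state separated ICI 1, ICI 4 and isotype from ICI 2 and ICI 3. Dntt, the base-adding polymerase, was at 625, 13.5, 5.14, 720 and 623 CPM. H2-T3, a nonclassical class I gene expressed in thymocytes, was at 831, 40.4, 30.8, 905 and 713 CPM. Rag1 was at 26 CPM in ICI 1, 61.1 in ICI 4 and 61.0 in isotype, with no UMI in ICI 2 or ICI 3, where a count of 0 allows up to 20.2 and 15.4 CPM. For all 3 genes isotype lay inside the ICI range, and the gap between ICI libraries was larger than that between ICI 4 and isotype. Ptcra was at 88.1, 0, 0, 54.6 and 80.9 CPM. Rag2 was at 16.0, 0, 0, 23.9 and 18.4 CPM, and its counts of 0 allow levels close to those of ICI 1 and isotype. The chromatin organizer Satb1 was at 475, 20.2, 20.6, 481 and 535 CPM. Myb, a factor of immature T cells, was at 210, 6.73, 5.14, 582 and 409 CPM, and Tcf7, a factor that starts the T cell programme, at 779, 53.8, 41.1, 976 and 1014 CPM. Il2ra, the interleukin-2 receptor alpha chain of early thymocytes and activated T cells, was at 160 CPM in ICI 1 and at 0, 5.14, 22.8 and 18.4 CPM elsewhere. In ICI 1 it was at 84.3 CPM in the cells with thymocyte transcripts only and at 195 CPM in those with effector transcripts only.

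**Figure D3:**
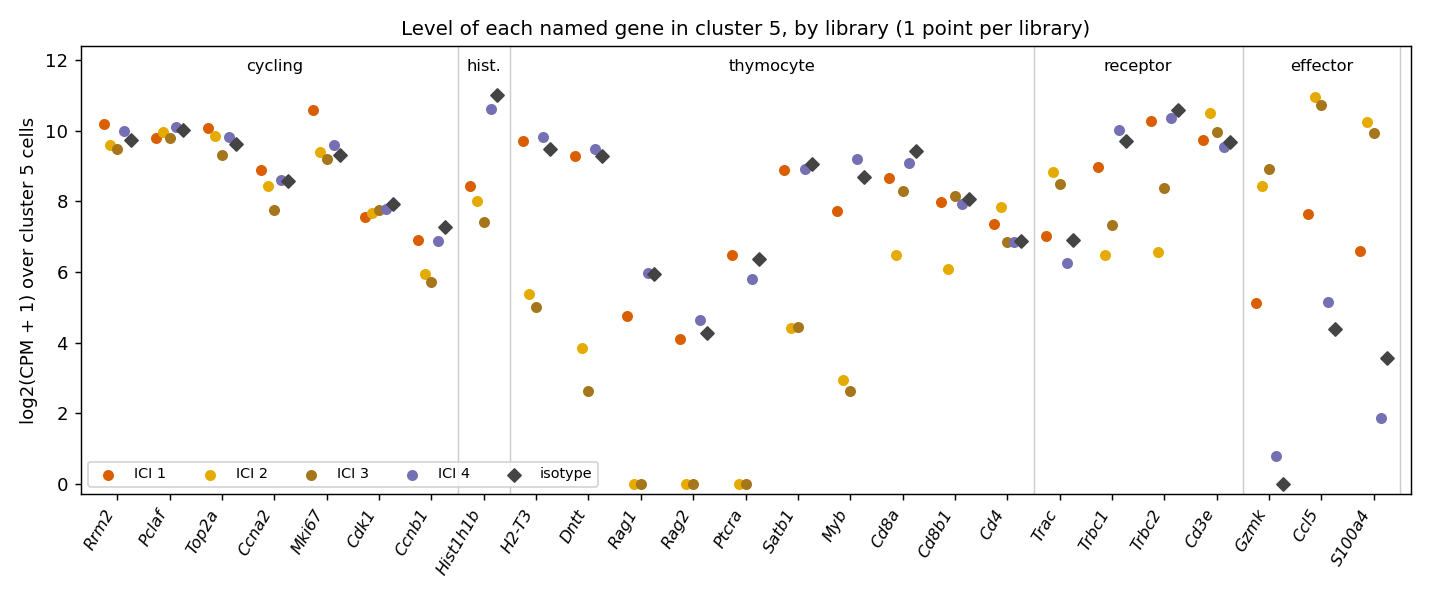
Level of named genes in cluster 5 on the log2(CPM + 1) scale, with 1 point per library (circles ICI, diamonds isotype). Cycling genes lie close together in all libraries, while H2-T3, Dntt, Satb1 and Myb are lowest in ICI 2 and ICI 3 (Dntt at 13.5 and 5.14 CPM against 623 in isotype) and effector genes are high there.

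Coreceptor and receptor genes also set the libraries apart. Cd8a was at 400.5, 87.5, 314, 541 and 685 CPM, Cd8b1 at 250, 67.3, 283, 242 and 267 CPM, and Cd4 at 164, 229, 113, 114 and 116 CPM. Transcripts of both Cd4 and Cd8a, the pair that defines double-positive thymocytes, were found together in 30.2% of ICI 1 cells, 68.7% of ICI 4 cells and 58.2% of isotype cells. They were found together in 0 of 18 cells of ICI 2 and 0 of 25 of ICI 3, which limits only cells with a UMI of both genes, to 16.7% and 12% by the 3-count rule (18.5% and 13.7% by the exact 95% interval), at medians of 8012 and 1686 UMIs. The exact two-sided permutation p was 0.8 for a mean difference of -33.5 points, and at 2000 UMIs the shares were 15.4%, 0, 0, 17.8% and 20.3% (difference -12.0 points, exact p = 0.6). For comparison, 15.6% of macrophage-like cluster 7 cells had a Cd8a transcript and 20.5% a Cd4 transcript, each taken alone.

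The beta chain constant genes were abundant where thymocyte genes were: Trbc2 was at 1231, 94.2, 334, 1308 and 1532 CPM and Trbc1 at 501, 87.5, 159, 1031 and 837 CPM. Trac, the alpha chain constant gene, was at 128, 451, 360, 74.9 and 118 CPM, so it was highest in ICI 2 and ICI 3, where the effector kind prevailed. Cd3e, part of the signalling complex of both receptor forms, was at 859, 1447, 997, 743 and 820 CPM. Trdc, the delta chain constant gene, was at 112, 6.73, 15.4, 241 and 167 CPM. The receptor signalling genes were spread less widely. Lck, the kinase that starts receptor signalling, was at 795, 713, 530, 735 and 780 CPM, and the adaptor Lat at 721, 902, 802, 599.9 and 824 CPM. Ptprc, which encodes CD45 itself, was at 791, 794 and 704 CPM in ICI 1 to 3 and at 307 and 339 CPM in ICI 4 and isotype. In ICI 1 it was at 409 CPM in cells with thymocyte transcripts only and at 1421 CPM in those with effector transcripts only.

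Genes of T cell identity and survival were also listed. Ets1, a lymphocyte factor, was at 505, 417, 314, 449 and 443 CPM, so it was not split in the way of Tcf7 and Myb. Lef1, a partner of Tcf7, was at 312, 26.9, 41.1, 237 and 353 CPM. Among survival genes Bcl2l11, the death inducer Bim, was at 72.1, 13.5, 25.7, 201 and 147 CPM, and Mcl1, its antagonist, at 84.1, 100.97, 92.5, 228 and 256 CPM. Both were highest in ICI 4 and isotype, with ICI 1 nearer to ICI 2 and ICI 3. Bax, an effector of cell death, was at 180, 296, 242, 121 and 148 CPM. Notch1, the receptor that commits cells to the T lineage, was at 86.1, 33.7, 36.0, 52.0 and 55.3 CPM. Ikzf2 was at 164, 6.73, 5.14, 114 and 77.4 CPM, and Tnfrsf18, a costimulatory receptor, at 58.1, 108, 97.7, 50.4 and 48.2 CPM.

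Clusters 2 and 11 place these cells among the thymocyte-like cells of the same libraries. The values that follow are for ICI 4 and isotype and carry no test, since the clusters were made from the same genes. Dntt was at 720 and 623 CPM in cluster 5, 775 and 865 in cluster 11, and 80.3 and 174 in cluster 2. Ptcra was at 54.6 and 80.9 CPM in cluster 5, 56.7 and 71.1 in cluster 11, and 3.51 and 9.30 in cluster 2. Trac was lower in cluster 5 (74.9 and 118 CPM) than in cluster 11 (506 and 518) and cluster 2 (449 and 385). Cd8a followed the order cluster 5 (541 and 685 CPM), cluster 2 (592 and 917) and cluster 11 (1626 and 2275), and Ccr9, a chemokine receptor of double-positive thymocytes, was at 72.8 and 145 CPM against 707 and 979 in cluster 2 and 848 and 995 in cluster 11. As a share of UMIs, cluster 5 thus had Dntt and Ptcra at levels like those of cluster 11 with less Trac, Cd8a and Ccr9. Median depth was 13085 UMIs per cell in cluster 5, 2765 in cluster 2 and 1934 in cluster 11. Such shares do not give amounts per cell, which were not compared.

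Effector genes had the opposite order of libraries. Ccl5, a chemokine of cytotoxic and memory T cells, was at 198, 1965, 1707, 34.5 and 20 CPM, and Gzmk at 34, 343, 478, 0.733 and 0 CPM (a count of 0 in isotype allows up to 1.54 CPM). S100a4, a calcium-binding protein of effector cells, was at 96.1, 1205, 972, 2.62 and 10.8 CPM. ICI 2 and ICI 3 were highest for each, ICI 1 was next, and ICI 4 and isotype were lowest. The 19 genes of the list summed to 2403, 11301.5, 11819.6, 1334 and 1003 CPM, and 9 of 19 were above isotype in all 4 ICI libraries, where 16.8% of tested genes were. Lgals1, a lectin, was at 785, 1817, 1640, 845 and 656 CPM, and S100a6 at 132, 1191, 1568, 11.4 and 28.2 CPM. Foxp3, the factor of regulatory T cells, was at 30.0 CPM in ICI 1, at 0 in ICI 2 and ICI 3, and at 1.26 and 1.02 CPM in ICI 4 and isotype.

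Class I peptide presentation genes, which are low in double-positive thymocytes and high in mature T cells, went with the effector genes. The 12 listed members summed to 4063, 10426, 10452, 2273 and 2175 CPM, and 8 of 12 were above isotype in all 4 ICI libraries, where 16.8% of tested genes were. H2-K1 was at 96.1, 1003, 843, 36.9 and 37.4 CPM, H2-D1 at 1219, 3648, 3239, 403 and 393 CPM, and B2m, their shared light chain, at 767, 2544, 2673, 348 and 328 CPM. Within ICI 1, H2-D1 was at 269 CPM in the cells with thymocyte transcripts only and at 3030 CPM in those with effector transcripts only. The like values for thymocyte transcripts only were 333 CPM in ICI 4 and 317 in isotype, and those for effector transcripts only were 3668 CPM in ICI 2 and 3299 in ICI 3. ICI 2 and ICI 3 each had 2 cells with thymocyte transcripts only, and ICI 4 and isotype had none with effector transcripts only, so both kinds were compared within ICI 1 alone.

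**Figure D4:**
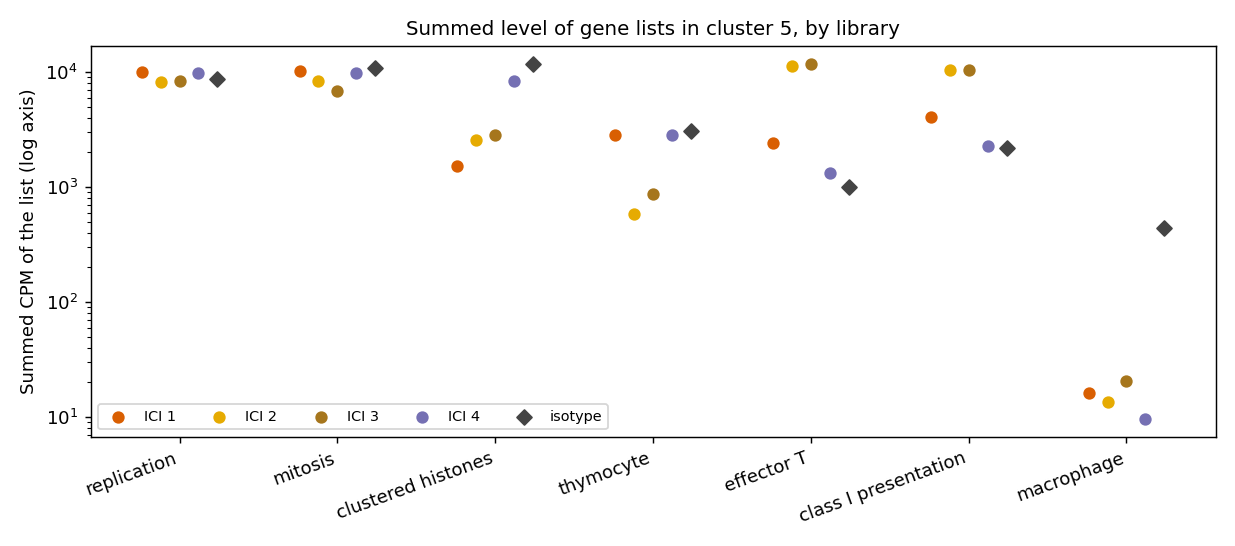
Summed CPM of 7 gene lists in cluster 5 on a log axis, with 1 point per library. Replication and mitosis genes lie close together, thymocyte genes are lowest and effector and class I genes highest in ICI 2 and ICI 3, histone sums are highest in ICI 4 and isotype, and macrophage genes stand out in isotype (442 CPM against at most 20.6).

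Over all genes, few differed between ICI and isotype beyond the spread between ICI libraries. The edgeR quasi-likelihood test was fitted to counts summed per library for ICI 1, ICI 3, ICI 4 and isotype, since ICI 2 had under 20 cells, and the single isotype library was given the spread of the ICI libraries. Of 9494 genes tested, none was higher in ICI and 3 were lower (0.0316% of genes tested) at an adjusted p under 0.05. At an unadjusted p under 0.05 there were 88 genes, and DESeq2 called 8 lower and none higher. The 3 genes were Cxcl2, a chemokine of myeloid cells, Apoe and Lyz2, both abundant in macrophages. They were at 109, 122 and 150 CPM in isotype and between 0 and 6.73 CPM in every ICI library. Log2 fold changes were -8.93 (SE 0.65) for Cxcl2, -7.53 (SE 0.63) for Apoe and -6.39 (SE 0.54) for Lyz2, each with an edgeR adjusted p of 0.0475.

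All 3 calls rested on few isotype cells. Cxcl2 was found in 6 of the 153 isotype cells and 97.7% of its UMIs were in 1 cell, Apoe in 6 cells with 64.3% in 1, and Lyz2 in 7 cells with 32.2% in 1. At least 3 UMIs of the 10 macrophage genes were found in 9 isotype cells, 2 cells of ICI 4 and none of ICI 1 to 3, and the list summed to 442 CPM in isotype against 9.63 to 20.6 CPM in ICI. With those cells removed, or with the top cell of each gene dropped, no gene passed in either direction. Tg, the thyroid hormone precursor, showed the same pattern at 393 CPM in isotype with 98.6% of its UMIs in 1 cell. No gene passed without ICI 1 either, 15 were lower without ICI 3, and 127 were higher and 76 lower without ICI 4.

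Outside the macrophage list (Apoe, Lyz2) and the neutrophil list (Cxcl2), no list had a member past the threshold in this comparison. Of the 19 effector genes 18 had a positive fold (median 4.26 on the log2 scale, or 4.19 with the 5 genes at 0 in isotype set to 3 UMIs, against 0.02 over all genes tested), with ICI libraries spread from 1334 to 11819.6 CPM. All 12 class I genes had a positive fold (median 0.99) and 13 of 14 thymocyte genes a negative one (median -0.30). Without ICI 3 the effector median was 2.24, the class I median 0.36 and the thymocyte median -0.07, and without the smaller copies of shared barcodes, where ICI 3 fell under 20 cells, they were 2.25, 0.36 and -0.08. Without ICI 4 the effector, class I and thymocyte medians were 4.88, 1.38 and -0.80. With cells of 3 or more effector UMIs other than Gzma removed, the class I median was 0.04, 10 of 12 were positive, and 7 of 14 thymocyte genes were positive. Replication genes (18 of 29 positive, median 0.07, or 0.12 without the smaller copies) and mitosis genes (5 of 26 positive, median -0.19) had medians near that of all genes. Above isotype in all 4 ICI libraries were 11 of 29 replication genes and 1 of 26 mitosis genes, where 16.8% of tested genes were. Below it in all 4 were 3 of 29 and 10 of 26, where 14.1% of tested genes were. The 48 histone genes tested had a median of -1.29, with 46 negative and none called. In simulated data of this design edgeR recovered 0% of genes changed 2-fold, 2.08% of those changed 4-fold, 21.4% of those changed 8-fold and 48.0% of those changed 16-fold, and DESeq2 recovered 20.8% of 4-fold, 57.1% of 8-fold and 70% of 16-fold changes with 14 false calls among 83, so differences of 4-fold or less were mostly not detectable here.

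Cells within the cluster were also compared by cycle phase. The authors' calls put 47.6%, 50%, 60% and 56.0% of cells in S phase in ICI 1 to 4 and 51.6% in isotype, and the others in G2M. The ICI mean of 53.4% ± 5.64 (SD, n = 4) differed from isotype by 1.78 points, with 2 of 4 libraries above it and an exact two-sided permutation p of 1.0 (0.68 points without the smaller copies of shared barcodes). From counts thinned to 2000 UMIs the S shares were 48.1%, 54.5%, 66.7%, 52.7% and 47.7%, with all 4 ICI libraries above isotype by a mean of 7.77 points (exact two-sided permutation p = 0.4). The calls cut a continuous pair of scores, and 120 of 805 cells had scores within 0.1 of each other.

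G2M and S cells were compared within libraries by edgeR with library as a block, in ICI 1, ICI 3, ICI 4 and isotype, since ICI 2 had 9 cells in each phase. The phase calls came from 43 S and 54 G2M genes of the usual Seurat lists, if the authors used these, so those genes are described without a test, and phase and expression came from the same counts. Over all 6916 genes tested, 151 were higher in G2M (2.18%) and 104 higher in S (1.5%), 255 in all (3.69%). Of 6822 genes outside the lists, 115 were higher in G2M (1.69%) and 85 higher in S (1.25%), 200 in all (2.93%). Of these 200, 170 lay on the same side in all 4 libraries. That count is a description, since a test with library as a block favours such genes. ICI 3 had 15 S and 10 G2M cells, where a single UMI was 6.74 and 21.7 CPM. For genes at low levels, the side of ICI 3 can thus rest on very few UMIs. Median depths of G2M and S cells were 3800 and 8573 UMIs in ICI 1, 1641 and 3875 in ICI 3, 14532.5 and 14850.5 in ICI 4 and 10754.5 and 8745 in isotype, and the part of depth was not tested.

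Genes of mitosis were among those higher in G2M. Cep89, a centriole protein, was at 6.20, 0, 3.91 and 3.23 CPM in S cells of ICI 1, 3, 4 and isotype and at 62.2, 43.4, 41.9 and 34.2 CPM in G2M cells, a log2 fold of 3.34 (SE 0.32, edgeR adjusted p = 3.39e-06). Aspm, a spindle pole protein, was at 77.5, 6.74, 29.0 and 38.8 CPM in S cells and 555, 109, 135 and 130 CPM in G2M cells (log2 fold 2.16). Ccnb1, the cyclin of mitotic entry, was at 37.2, 13.5, 52.4 and 73.3 CPM in S cells and at 266, 174, 192 and 226 CPM in G2M cells (log2 fold 1.90). For these 3 genes, named from the largest folds, no S value reached any G2M value. How many of all genes tested were so separated was not counted. Tnfaip8l1 (2.55), Emp1 (2.35), the phosphatase Cdkn3 (2.35), the tubulin Tuba1c (2.12), Arhgef39 (2.02), Cd74 (1.98) and Arl6ip1 (1.94) complete the 10 largest log2 folds among genes outside the phase lists that were on the same side in all 4 libraries. Of the 26 mitosis genes 20 were in the phase lists. All 6 outside them passed as higher in G2M, against 1.69% of genes outside the lists: Ccna2 (0.96), Plk1 (1.62), Bub1b (0.98), Kif20a (1.01), Prc1 (0.81) and Ccnb1.

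Replication genes were among those higher in S. Of 29 replication genes 17 were in the phase lists, and the median log2 fold over all 29 was -0.75. Of the 12 outside the phase lists 6 passed as higher in S, against 1.25% of genes outside those lists. These 6 included Mcm2 (-1.07), Mcm3 (-0.91), Pole (-0.81) and Lig1 (-0.75). Tnfrsf4, a costimulatory receptor, had the largest fold on the S side by the same ranking (-1.59, SE 0.31, edgeR adjusted p = 0.00516), at 146, 13.5, 17.8 and 20.5 CPM in S cells and 22.6, 0, 8.33 and 6.84 CPM in G2M cells. The nuclease and helicase Dna2 (-1.56), Snhg4 (-1.50), the folate enzyme Shmt1 (-1.39), N4bp2l1 (-1.37), Dpy19l1 (-1.37), Il2ra (-1.25), Rrp15 (-1.25), the spermidine synthase Srm (-1.19) and Ly6a (-1.17) followed. Il2ra was at 208, 6.74, 26.6 and 35.6 CPM in S cells and 73.6, 0, 18.5 and 2.93 CPM in G2M cells. It was lower in G2M in all 4 libraries, but in ICI 3 this was a single UMI against 0. Cycle entry genes also passed as higher in S, with Ccne1, the cyclin of S phase entry, at -1.53, the factor E2f1 at -1.06 and the kinase Cdk4 at -0.84. Cdkn2d, a Cdk4 inhibitor, was higher in G2M (0.99), as was the stress gene Klf6 (0.84), and Ctla4, an inhibitory receptor and target of the treatment, was higher in S (-1.10, 3 of 4 libraries). E2f1 and Cdk4 were lower in G2M in 4 of 4 libraries and Ccne1 in 3 of 4. Of the 20 ranked genes, 16 passed by DESeq2, where N4bp2l1 (adjusted p = 0.133), Dpy19l1 (0.103), Il2ra (0.0593) and Srm (0.0618) did not. Without ICI 3, Il2ra, Srm and Ly6a did not pass in edgeR (adjusted p = 0.126, 0.145 and 0.0601), nor Snhg4 without ICI 4 (0.140) or Ly6a without isotype (0.0565). Without ICI 4 or without isotype 9 of the 20 could be tested, and without the library block 6 of 20 passed. With the cells of effector transcripts removed, 16 could be tested, and Il2ra (0.172) and Rrp15 (0.0617) did not pass, nor did Cd74 (0.131) with Gzma left out of the count.

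Several genes of the double-positive stage were higher in G2M cells. Ccr9 was at 58.9, 0, 51.8 and 102.4 CPM in S cells and 192, 65.1, 97.0 and 185 CPM in G2M cells (log2 fold 0.97, SE 0.21, edgeR adjusted p = 0.00911). Themis, a signalling protein of thymocyte selection, was at 143, 74.1, 133 and 150 CPM in S cells and 413, 152, 210 and 234 CPM in G2M cells (0.77, adjusted p = 0.0248). Cd8a was at 251, 263, 421 and 530 CPM in S cells and 673, 478, 678 and 825 CPM in G2M cells (0.75, adjusted p = 0.0385). For each gene the G2M value was higher in 4 of 4 libraries, though Ccr9 in ICI 3 rested on few UMIs. Trac (0.76, adjusted p = 0.0497) and the factor Runx1 (0.64, adjusted p = 0.0466) also passed. Ccr9, Themis and Cd8a were the 3 thymocyte genes past the threshold among 13 tested, where 1.69% of genes outside the phase lists were higher in G2M. Of the 13, 11 had a positive fold (median 0.66), against 3483 of 6916 genes tested (median 0.00). Cd8b1 (0.62, adjusted p = 0.0653), Cd4 (0.66, 0.0906), Satb1 (0.71, 0.111), H2-T3 (0.43, 0.40) and Rag1 (0.49, 0.223) did not pass, nor did Dntt (-0.14, 0.811) or Ptcra (-0.48, 0.216).

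With the cells of effector transcripts other than Gzma removed, edgeR adjusted p-values were 0.0112 for Ccr9 (0.86), 0.0268 for Themis (0.74), 0.0510 for Cd8a (0.72) and 0.0913 for Trac (0.51), so Cd8a and Trac no longer passed. Without ICI 3 only Ccr9 of these 5 genes passed (edgeR adjusted p = 0.0237), with Themis at 0.0655, Runx1 at 0.0632, Cd8a at 0.109 and Trac at 0.146. Themis and Cd8a also missed the threshold without isotype (0.0655 and 0.106), Cd8a without ICI 4 (0.0649) and Runx1 without ICI 4 (0.206) and without isotype (0.366), and by DESeq2 Trac (0.166) and Runx1 (0.180) did not pass. All 7 receptor and Cd3 genes and all 11 receptor signalling genes had positive folds (medians 0.26 and 0.31), where 3483 of 6916 genes tested had. Trac alone of them passed. A positive fold was found for 4 of 12 class I and 5 of 15 effector genes, and none passed. Hist1h1b (0.03, SE 0.24) and Pclaf (-0.26, SE 0.21) did not pass, and the phase list genes Hmgb2, Rrm2 and Top2a had folds of 0.54 (SE 0.24), -0.43 and 0.87.

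**Figure D5:**
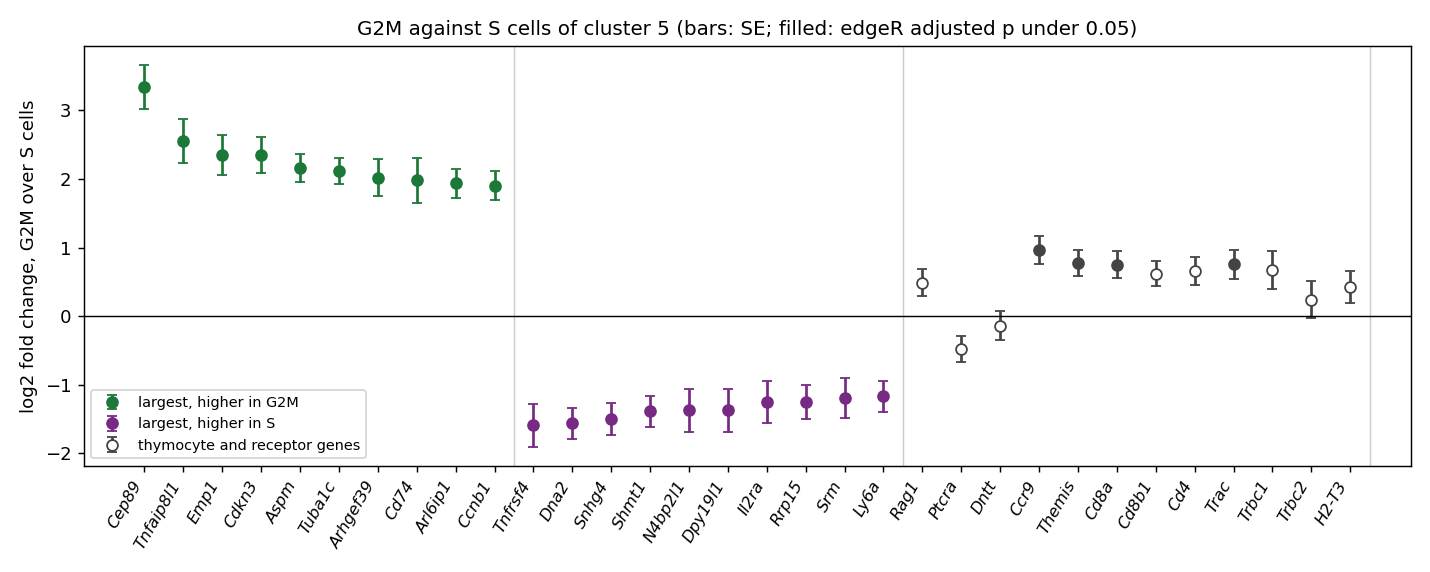
Log2 fold change of G2M over S cells of cluster 5 with its standard error, from edgeR with library as a block, for the 10 largest folds in each direction among genes outside the phase lists with the same side in every library, and for thymocyte and receptor genes. Filled points passed an adjusted p of 0.05, and of the genes on the right Ccr9, Themis, Cd8a and Trac did, from 0.75 to 0.97.

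Promoter letters are shown for 2 markers of the cluster, Top2a and Rrm2, which are both in the phase lists. From outside the phase lists come the G2M gene with the lowest adjusted p among those with the homology letters, and the S gene with the lowest among those with the E2F letters. The sequences are the 250 bases before the start of each gene, from RefSeq, assembly GRCm38.p6 (the mm10 build). Capitals mark CCAAT, the cell cycle homology letters TTTGAA or TTCGAA, and the E2F letters TTTCCCGC or TTTGGCGC, on either strand. A TTTGAA match can overlap CCAAT by 1 letter, and no matches overlap in the sequences shown. The choice was made after the matches were seen, and Ccna2 and Hist1h1b are named only. Of the 6916 genes tested, 5534 were matched to a promoter by symbol.
Top2a, chr11:99024190-99024439, minus strand: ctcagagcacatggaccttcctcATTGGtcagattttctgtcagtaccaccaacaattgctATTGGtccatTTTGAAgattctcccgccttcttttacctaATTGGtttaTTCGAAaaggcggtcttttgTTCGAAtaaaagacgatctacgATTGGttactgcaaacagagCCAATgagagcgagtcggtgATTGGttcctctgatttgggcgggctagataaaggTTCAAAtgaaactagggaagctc
Rrm2, chr12:24708004-24708253, plus strand: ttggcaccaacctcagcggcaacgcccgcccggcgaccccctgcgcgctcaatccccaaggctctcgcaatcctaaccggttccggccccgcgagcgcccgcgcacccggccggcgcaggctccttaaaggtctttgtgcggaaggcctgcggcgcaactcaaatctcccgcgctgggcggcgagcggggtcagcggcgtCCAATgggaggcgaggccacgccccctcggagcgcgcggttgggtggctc
Cep89, chr7:35396813-35397062, plus strand: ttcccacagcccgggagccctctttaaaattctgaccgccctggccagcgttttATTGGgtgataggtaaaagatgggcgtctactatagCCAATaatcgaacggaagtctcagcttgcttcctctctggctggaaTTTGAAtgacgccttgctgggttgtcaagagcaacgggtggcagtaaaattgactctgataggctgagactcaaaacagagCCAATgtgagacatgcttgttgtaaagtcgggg
Siva1, chr12:112644578-112644827, plus strand: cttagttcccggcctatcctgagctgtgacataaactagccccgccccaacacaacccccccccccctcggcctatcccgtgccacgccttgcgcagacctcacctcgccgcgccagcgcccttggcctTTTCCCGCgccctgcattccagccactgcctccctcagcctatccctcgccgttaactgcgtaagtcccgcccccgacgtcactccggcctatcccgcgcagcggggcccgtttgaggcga

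The 250 bases of Top2a (log2 fold 0.87 in G2M) held 4 matches to the homology letters and 6 to CCAAT, and those of Cep89 (3.34) held 1 and 3. Rrm2 (-0.43, not past the threshold) held 1 CCAAT, and Siva1, a gene of apoptosis that was higher in S (-1.03), held 1 E2F match. Over windows of 300 bases, from 250 before to 50 after the start, the homology letters were found in 46 of 95 promoters (48.4%) of genes higher in G2M outside the phase lists and in 10 of 69 (14.5%) of those higher in S. They were found in 14.5% of the 5534 tested genes with a window and in 19.4% of 27025 windows in all. CCAAT was found in 65.3%, 44.9%, 39.5% and 37.9% of the same 4 sets, and the E2F letters in 4.21%, 11.6%, 4.19% and 1.63%. Over the 250 bases before the start alone, the homology letters were found in 31.6% of the G2M set, 14.5% of the S set and 12.5% of tested genes, and the E2F letters in 4.21%, 5.80% and 3.56%. These are matches of letters, given with no test.

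Markers of other cell types were summed in the same way. B cell genes summed to 422, 47.1, 154, 657 and 790 CPM, most of it Ly6d and Ighm (389.5 and 253 CPM in ICI 4), with Cd79a at 0 to 3.04 CPM. Class II and dendritic genes summed to 171 to 262 CPM in ICI and 827 in isotype, and natural killer genes to 6.70 to 121 CPM in ICI and 87.6 in isotype. Thyroid epithelial genes summed to 5.14 to 20.5 CPM in ICI and 413 in isotype, fibroblast genes to 0.837 CPM at most in ICI and 1.54 in isotype, and thymic epithelial genes to 6.66 to 25.7 CPM over the 5 libraries. Red cell genes summed to 193 CPM in ICI 4, 12.3 in isotype and 0 to 2.00 in ICI 1 to 3. Hspa8, a constitutive chaperone, was at 4197, 2908, 4087, 2504 and 2189 CPM and led the dissociation stress genes, which summed to 4018 to 7249 CPM in ICI and 5032 in isotype. Parathyroid, endothelial, neutrophil and platelet genes summed to 0 to 65.0 CPM in ICI, and to 21.5, 71.2, 139 and 17.4 CPM in isotype.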

How the data were processed

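The files the authors deposited hold UMI counts (18767 genes, 10275 cells) and a cell table with the mitochondrial percent, cell cycle scores, phase calls and 17 clusters at resolution 0.4, per the file headers. Cell Ranger, Seurat and build mm10 come from the submitters' processing notes, with no versions. Whether doublets were removed is not given in the sources used here. The deposited score values for phase and percent values for mitochondria were used as given. Members and gene lists were chosen with earlier results of these data known.

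Counts were summed per library, or per library and phase, over cluster 5 cells and tested with edgeR 4.0.16 (quasi-likelihood, TMM, filterByExpr with a minimum count of 10, Benjamini-Hochberg over all genes tested, threshold 0.05), with DESeq2 1.42.0 as an alternative. Libraries needed 20 cells, or 10 of each phase. P-values measure only the spread between libraries of pooled mice, which may be technical. Alternatives covered scaling, filters, the block, left-out libraries and removed cells. Phase was called again with scanpy 1.11.5 on thinned counts, and the thinning leaves out shallow cells. The simulated data drew changed genes at known folds: edgeR made 3 false calls among 37 for ICI against isotype and 11 among 188 for G2M against S. Named genes were 28 fixed ones and the 10 largest folds per direction past the threshold on the same side in every library (for phase, outside the phase lists), without receptor segments, ribosomal, mitochondrial and unnamed genes, and list members past the threshold. The 3 most abundant members of each list also fell under the rule, and not all are printed. Foxp3, Gzma, H2-K1, Cd79a and Siva1 were chosen after their values were seen. A few genes that fell under the rule are not reported here.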

Additional observations from a re-analysis of the deposited data

Results flagged for a closer look

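Of 34 values tested over the 4 ICI libraries, 2 had 1 library whose gap to the nearest other, as a share of the range, was above Dixon's 95% critical value for 4 samples. Chance gives this in about 1 in 20 groups. Hist1h1b was at 1574 CPM in cluster 5 cells of ICI 4 (gap 0.874 of the range) against 170 to 346 CPM in ICI 1 to 3. Il2ra was at 160 CPM in ICI 1 (gap 0.858 of the range) against 0 to 22.8 CPM in the other ICI libraries.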

How the results depend on the processing

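No paired analysis was possible because ICI and isotype share only the replicate number 1, which names a library and pairs no mice. Leaving out ICI 3 turned the S phase difference from 1.78 to -0.41 points (range without 1 ICI library -0.41 to 3.71) and the G2M one from -1.78 to 0.41 (-3.71 to 0.41), and the other alternatives kept the sign of every share. No gene was higher in ICI under the other alternatives, except 4 with the cells of effector transcripts removed, and 0 to 127 without 1 ICI library. The 3 lower genes became 8 with DESeq2, 14 with no filter on low counts, 21 with effector cells removed, 13 with the smaller copies of shared barcodes removed and 0 to 76 without 1 ICI library. They became 0 with ICI 1 to 3 summed, with macrophage-transcript cells removed and with the top cell of each gene dropped. Of 2 alternatives chosen after seeing the data, removing effector cells by genes other than Gzma gave 11 and keeping ICI 2 gave 0. For G2M against S, all genes gave 151 higher in G2M and 104 higher in S. DESeq2 gave 42 higher in S, no filter gave 191, and without the library block 21 and 1 passed. Without effector cells 236 and 290 passed, and without 1 library (ICI 1, 3, 4 or isotype) 88 to 285 and 33 to 344. The cause of these shifts was not tested. Of 388 alternative values for single genes of this comparison, 96 lost the call and none changed sign, and for ICI against isotype 11 of 36 lost it. ICI 2 was not in these fits, so leaving it out was not run. ICI 2 and ICI 3, with 18 and 25 cells, limit depth most.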
